A study of Rattus norvegicus with 5 samples.

Results

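Neuropeptides and calcium-binding proteins are the usual markers by which cortical interneurons are sorted into classes. The set described here holds 7 such genes: the neuropeptides Sst (somatostatin), Npy (neuropeptide Y), Vip (vasoactive intestinal peptide) and Cck (cholecystokinin), and the calcium-binding proteins Pvalb (parvalbumin), Calb1 (calbindin) and Calb2 (calretinin). The genes were chosen by name as interneuron markers and by their Ensembl identifiers, with the fold changes of these same tables already known, so every value below is a description of the set and no independent test of it. Of the 7 genes, 6 had a row in all 4 tables, 3 neuropeptides and 3 calcium-binding proteins, among 14815 genes found in all 4. The identifier listed for Npy (ENSRNOG00000046449) had no row in the tables used, and Npy was therefore not measured here. Identifiers and symbols were paired as the definition of the set gives them, since neither the tables nor the gene table at hand pairs them.

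The cells were primary cortical neurons of the rat, taken from embryonic day 18 brains and kept for 21 days in vitro. In 4 of the 5 groups a short hairpin RNA (shRNA) was directed at 1 gene: Ehmt1 (a histone H3 lysine 9 methyltransferase), Smarcb1 (a subunit of the BAF chromatin remodelling complex), Mll3 (also called Kmt2c, a histone H3 lysine 4 methyltransferase) or Mbd5 (a protein with a methyl-CpG-binding domain). The fifth group is the control, called GFP in the tables. What the control cells received beyond that name, the promoter that drives the shRNAs and the share of cells that took them up are not given in the sources used here. Each group is listed as 1 sample, and the data are the authors' 4 comparisons of a knockdown with the control, without a value for any single library. The control is common to the 4 comparisons, so their values are not independent of one another. How many libraries stand behind each value is not stated, and whether the standard errors (SE) cover separate cultures is unknown.

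Sst and Pvalb mark interneurons that arise in the medial ganglionic eminence of the embryo, whereas Vip and many Calb2 cells arise in the caudal one. Somatostatin and VIP are released from dense-core vesicles and act on G protein-coupled receptors, and transcription of both genes is a textbook response to cyclic AMP through the factor CREB. Parvalbumin, calbindin and calretinin are EF-hand proteins that buffer calcium in the cytosol. Several of these genes are not restricted to interneurons: Cck is also expressed by many excitatory cortical neurons, and Calb1 by some of them. In RNA from a whole culture, fewer cells of a type and less RNA per cell cannot be told apart.

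The promoters of Sst and Vip are shown because the letters of the cyclic AMP response element (CRE), to which CREB binds, occur in both. Both genes were called lower in the Smarcb1, Mll3 and Mbd5 knockdowns, but in the Ehmt1 knockdown Sst was called lower and Vip was not called. The sequences are from RefSeq (build GRCr8), 5′ to 3′, and run from 250 bases before the annotated transcript start to 50 bases from it on. The Sst window is chr11:90461296-90461595 (plus strand) and the Vip window chr1:44470230-44470529 (plus strand). Capitals mark the letters of the element.
Sst: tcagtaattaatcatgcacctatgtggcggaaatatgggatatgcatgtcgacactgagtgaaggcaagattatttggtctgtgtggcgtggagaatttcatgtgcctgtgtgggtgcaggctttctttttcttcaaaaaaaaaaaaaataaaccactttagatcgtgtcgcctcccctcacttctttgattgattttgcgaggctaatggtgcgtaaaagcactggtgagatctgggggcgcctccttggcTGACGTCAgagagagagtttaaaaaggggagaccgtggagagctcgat
Vip: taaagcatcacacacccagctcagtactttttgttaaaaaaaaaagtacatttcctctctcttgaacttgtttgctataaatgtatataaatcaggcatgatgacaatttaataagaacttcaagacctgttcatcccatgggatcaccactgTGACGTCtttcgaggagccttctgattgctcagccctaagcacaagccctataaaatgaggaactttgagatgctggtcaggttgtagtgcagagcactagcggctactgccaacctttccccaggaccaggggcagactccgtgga

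The full palindrome TGACGTCA began 2 bases after the annotated start of Sst. Whether that start is the one used in these neurons was not examined, so the element is not placed within transcribed sequence. The Vip window held its first 7 letters, TGACGTC, beginning 97 bases before the start, but not the full palindrome. On either strand, TGACGTCA was found in 1.83% and TGACGTC in 3.22% of 33469 rat promoter windows of this length, the second count including every window of the first. The half-site TGACG, which lies within both, was in 21.2% of the windows. The 7-letter form was added to the search after the Vip sequence was seen. The Pvalb window held only a half-site, beginning 241 bases before the start, and the Npy window held none of the 3. RefSeq windows were matched for 4 of the 7 genes, and Cck, Calb1 and Calb2 were not matched, so Cck and Calb1, each called lower in 3 knockdowns, could not be compared. Of the other motifs searched, the TATA box letters TATAAA (in 14.2% of all windows) began 48 bases before the start of Vip, with 2 further copies upstream. These exact letters were not in the Sst window, and variants of them were not searched. Neither Sst nor Vip held TGANTCA (AP-1, 7.33% of all windows), CACGTG (one E-box, 6.42%) or GGGCGG (the GC box, 33.1%), and CANNTG (the general E-box, 72.1%) was found once, in Sst. These are matches of letters and not measured binding sites.

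The direction of each fold change is not stated by the authors and was read from the level of the common control. If control and knockdown contribute equally to a gene's mean normalized count (counts divided by size factors), the mean and the fold change give the control level. Of 16 readings of the 4 signs, 1 brought the control levels of the tables together, with an SD of 0.0305 on the log2 scale over 6648 genes against 0.1596 for the next reading. Under it a positive deposited value means higher in the knockdown for Ehmt1 and higher in the control for the other 3 tables. All values below are knockdown over control under this reading. Fold changes credited below to the authors' deposited tables carry the sign of this reading. For Smarcb1, Mll3 and Mbd5 that is the reverse of the deposited sign. For the members themselves, the implied control level of Sst was 1460.7 (Ehmt1 table), 1493.0 (Smarcb1), 1505.7 (Mll3) and 1477.0 (Mbd5) normalized counts after the tables were brought to one scale. With all 4 signs turned round, the highest of these 4 levels of Sst would be 19.1 times the lowest, instead of 1.03 times. The next reading named above is a different one, which turns only the sign of Ehmt1. Its ratio for Sst was not computed. The corresponding ratio under the reading used was 1.02 for Cck, 1.02 for Calb1 and 1.08 for Calb2. It was 1.31 for Vip and 1.78 for Pvalb, the members with the lowest counts. Rows of the genes that the shRNAs target were not identified, so the knockdowns themselves were not checked here.

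Of the 24 values of the 6 genes in the 4 tables, 14 were called lower and 1 higher at an adjusted p-value under 0.05, and 9 were not called. In the Ehmt1 comparison, 4 of the 6 genes were called lower, where 0.966% of all 12728 tested genes were, and none was called higher, against 2.47% of all. In the Smarcb1 comparison, 3 were lower and 1 was higher, against 8.39% and 2.66% of 13474 tested genes. In the Mll3 comparison, 4 were lower and none higher, against 8.34% and 1.52% of 14107. In the Mbd5 comparison, 3 of 5 tested members were lower and none higher, against 2.68% and 0.890% of 12590. At an unadjusted p under 0.05 in the authors' deposited tables (DESeq2's Wald test), the members higher numbered 0 (Ehmt1, 5.69% of all genes), 1 (Smarcb1, 6.93%), 0 (Mll3, 5.34%) and 1 (Mbd5, 4.40%), Calb2 in both cases. The members lower at that threshold numbered 4 (Ehmt1, 3.75% of all genes), 4 (Smarcb1, 12.1%), 4 (Mll3, 12.0%) and 3 (Mbd5, 8.07%). The median log2 fold change of the 6 genes was -1.10 in the Ehmt1 knockdown, -0.78 in Smarcb1, -1.50 in Mll3 and -0.57 in Mbd5. Over all tested genes the median lay between -0.0254 (Ehmt1) and 0.0334 (Mll3). Since the genes were taken with these values known, the counts are not read against the background shares.

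**Figure D1:**
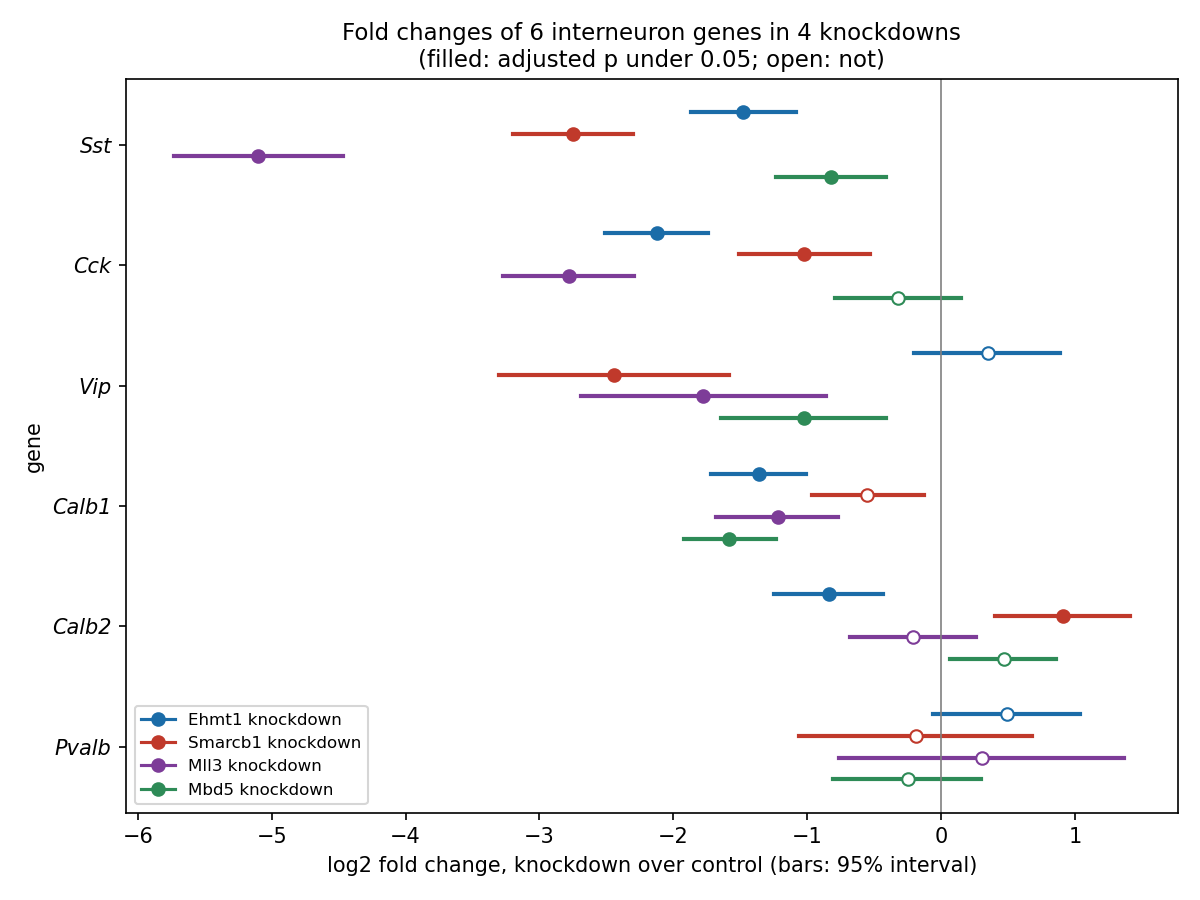
Log2 fold change (knockdown over control, horizontal axis) of each of 6 genes (vertical axis) in the 4 knockdowns, from the authors' deposited tables with bars for the 95% interval (normal approximation from the SE). Filled points passed an adjusted p-value of 0.05. All 4 Sst points lie left of 0, Calb2 has a filled point on each side, and no Pvalb point is filled.

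Among the neuropeptides, Sst was called lower in all 4 knockdowns. Its log2 fold changes were -5.10 (SE 0.32) with Mll3, -2.75 (SE 0.23) with Smarcb1, -1.48 (SE 0.20) with Ehmt1 and -0.82 (SE 0.21) with Mbd5. Their sizes are from the authors' deposited tables and their signs from the reading used. The adjusted p-values of the authors' deposited tables ran from 3.37e-52 (Mll3) to 0.00585 (Mbd5). In linear terms Sst (ENSRNOG00000001837) was at 2.91% of the control level in the Mll3 knockdown (95% interval 1.88 to 4.51), 14.9% in Smarcb1 (10.9 to 20.4), 35.9% in Ehmt1 (27.3 to 47.2) and 56.7% in Mbd5 (42.8 to 75.2). The intervals for Mll3, Smarcb1 and Ehmt1 did not overlap one another, while those for Ehmt1 and Mbd5 did. Differences between knockdowns were not tested. The implied level of Sst fell from the control levels given above to 43.8 in the Mll3 knockdown and 222.3 in Smarcb1. It was 524.1 in Ehmt1 and 837.9 in Mbd5.

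The fall of Sst was also extreme among all genes with Mll3, Ehmt1 and Smarcb1, and less so with Mbd5. Ordered from the lowest log2 fold change among all tested genes, Sst stood in place 1 of 14107 in the Mll3 table, 5 of 12728 in Ehmt1, 12 of 13474 in Smarcb1 and 244 of 12590 in Mbd5. By the size of the Wald score (fold change over SE) it also came first in the Mll3 table and in place 8 in Smarcb1. It came in place 19 in Ehmt1 and 180 in Mbd5.

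Cck fell in the Ehmt1, Mll3 and Smarcb1 knockdowns. In the Ehmt1 table its log2 fold change of -2.12 (SE 0.20, adjusted p 4.04e-23, the authors' deposited table) was the lowest of all 12728 tested genes. Cck (ENSRNOG00000019321) was thus at 22.9% of control in the Ehmt1 knockdown (95% interval 17.5 to 30). With Mll3 it was at 14.6% (10.3 to 20.5), on the log2 scale -2.78 (SE 0.25, adjusted p 1.19e-24, the authors' deposited table) in place 18 of that table. The fall with Smarcb1 was smaller, to 49.3% of control (35.1 to 69.2, adjusted p 0.000889, the authors' deposited table), in place 718 from the lowest. In the Mbd5 knockdown Cck was at 80.3% (58 to 111.2) and was not called (adjusted p 0.582, the authors' deposited table).

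Implied levels of Cck started from 862.7 to 883.2 normalized counts in the control. They were 128.6 in the Mll3 knockdown, 197.9 in Ehmt1, 432.1 in Smarcb1 and 703.7 in Mbd5. The order differed from that of Sst. Sst was at a smaller share of control in Smarcb1 than in Ehmt1, and Cck at a smaller share in Ehmt1 than in Smarcb1, in each case with intervals that did not overlap.

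**Figure D2:**
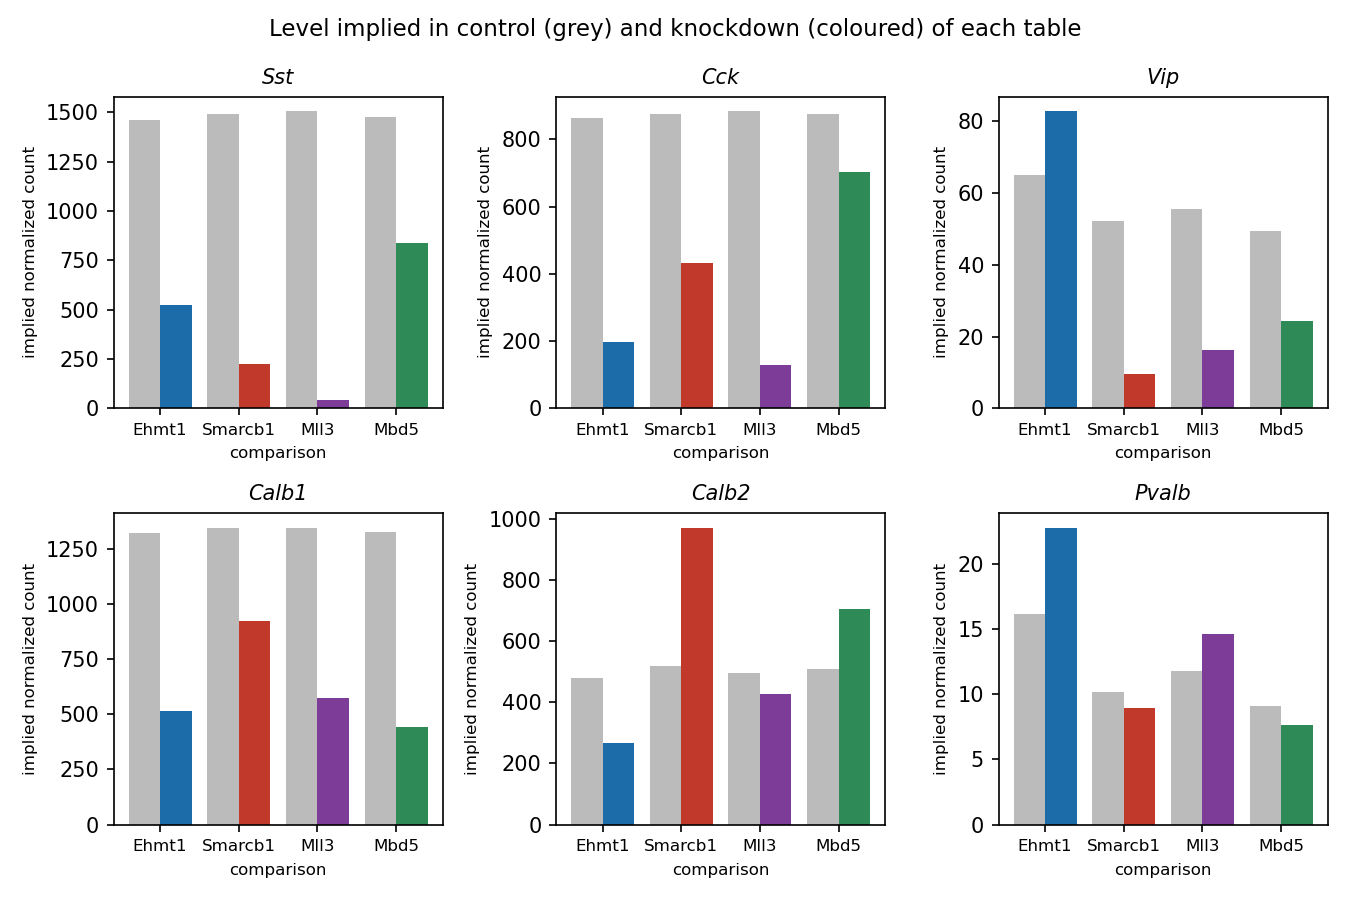
Normalized count implied for the control (grey bars) and the knockdown (coloured bars) of each comparison (horizontal axis), for 6 genes, on one scale for the 4 tables and with equal shares of both groups in the mean. The bars are derived from a mean and a fold change and carry no error, the vertical axes start at 0 and differ between genes. The grey bars of Sst stay between 1460.7 and 1505.7, while the coloured ones range from 43.8 to 837.9.

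Vip was lower in the Smarcb1, Mll3 and Mbd5 knockdowns and was not called with Ehmt1. Its counts were low, with means of 32 (Smarcb1), 36 (Mll3), 41.1 (Mbd5) and 64.1 (Ehmt1) normalized counts in the authors' deposited tables. Vip (ENSRNOG00000018808) was at 18.4% of control in the Smarcb1 knockdown (95% interval 10.1 to 33.5), which is -2.44 on the log2 scale (SE 0.44, adjusted p 1.35e-06, the authors' deposited table) in place 23 of 13474 from the lowest. With Mll3 it was at 29.2% (15.5 to 54.9) and with Mbd5 at 49.2% (32.2 to 75.4). The adjusted p-values for these were 0.00264 and 0.0378 in the authors' deposited tables, so that the Mbd5 call lies near the threshold and is lost at 0.01. In the Ehmt1 knockdown its log2 fold change was 0.35 (SE 0.28, adjusted p 0.8, the authors' deposited table), and the interval of -0.20 to 0.89 includes 0. Vip was the neuropeptide with the smallest share of control in Mbd5, where its interval overlapped that of Sst, whereas in Mll3 its share was the largest of the 3. Its SEs lay close to the highest of any gene in Smarcb1 (0.446), Mbd5 (0.314) and Ehmt1 (0.289). Whether its shares of control are on one scale with those of Sst and Cck, which had higher counts, was not tested.

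Among the calcium-binding proteins, Calb1 was lower with Ehmt1, Mll3 and Mbd5. In contrast to Sst, Cck and Vip, its lowest share of control was in the Mbd5 knockdown, at 33.5% (95% interval 26.4 to 42.5). The log2 fold change of Calb1 (ENSRNOG00000007456) there was -1.58 (SE 0.18, adjusted p 7.23e-16, the authors' deposited table), in place 7 of 12590 from the lowest and place 4 by the Wald score. It was at 38.8% of control with Ehmt1 (30.4 to 49.7, adjusted p 5.24e-11, the authors' deposited table), in place 8 of 12728. With Mll3 it was at 42.9% (31.2 to 58.8, adjusted p 7.66e-06, the authors' deposited table). These 3 intervals overlapped one another. With Smarcb1 the value was 68.5% (51.5 to 91.3) and missed the threshold, with an adjusted p of 0.0758 and an unadjusted p of 0.0097 in the authors' deposited table. The implied control level of 1320.7 to 1346.6 normalized counts stood against 443.9 (Mbd5), 513.1 (Ehmt1), 575.7 (Mll3) and 922.9 (Smarcb1) in the knockdowns.

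Calb2 was the member called in both directions. It was lower in the Ehmt1 knockdown, at 55.9% of control (95% interval 42.1 to 74.2), and higher in the Smarcb1 knockdown, at 187.6% (132.2 to 266.1). The log2 fold changes of Calb2 (ENSRNOG00000016977) were -0.84 (SE 0.21, adjusted p 0.00348) and 0.91 (SE 0.26, adjusted p 0.00629), with sizes and p-values from the authors' deposited tables. As deposited both values are negative (-0.84 and -0.91), so the opposite directions rest on the reading of the signs. In the Mbd5 knockdown its log2 fold change was 0.47 (SE 0.20), and in Mll3 -0.21 (SE 0.24), neither called (adjusted p 0.209 and 0.758, the authors' deposited tables). Its implied level was 268.1 normalized counts in Ehmt1, 428.0 in Mll3, 704.0 in Mbd5 and 971.3 in Smarcb1, where the control stood at 479.8 to 517.8. In the Smarcb1 table Calb2 stood in place 159 from the highest log2 fold change of 13474, and Sst in place 12 from the lowest.

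Pvalb was called in no knockdown, and its counts were at the bottom of what the tables could test. Its mean was 16.9 (Ehmt1), 9.89 (Smarcb1), 13.2 (Mll3) and 9.35 (Mbd5) normalized counts in the authors' deposited tables, and between 12.5% and 19.2% of genes had a lower mean. The log2 fold change of Pvalb (ENSRNOG00000006471) was 0.49 (SE 0.28) with Ehmt1, -0.19 (SE 0.44) with Smarcb1, 0.31 (SE 0.54) with Mll3 and -0.25 (SE 0.28) with Mbd5, with sizes from the authors' deposited tables and signs as read. All 4 of its 95% intervals included 0, and the widest, with Mll3, ran from 59.2% to 257.9% of control. The narrowest on the log2 scale, with Ehmt1 and Mbd5, ran from 96% to 205.3% and from 57.2% to 122.8%. The SE of Pvalb lay close to the highest of any gene with Ehmt1 (0.289), Smarcb1 (0.446) and Mll3 (0.561). With Mbd5 it lay between the median SE of 0.233 and the highest of 0.314. The widths of its intervals may therefore not show how far such low counts bound the change. The Mbd5 table gives Pvalb no adjusted p-value, as it does for all genes below a mean of 18.9. In the other 3 of the authors' deposited tables its adjusted p-values were 0.557 (Ehmt1), 0.888 (Smarcb1) and 0.865 (Mll3), and its unadjusted p was lowest with Ehmt1, at 0.0803.

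**Figure D3:**
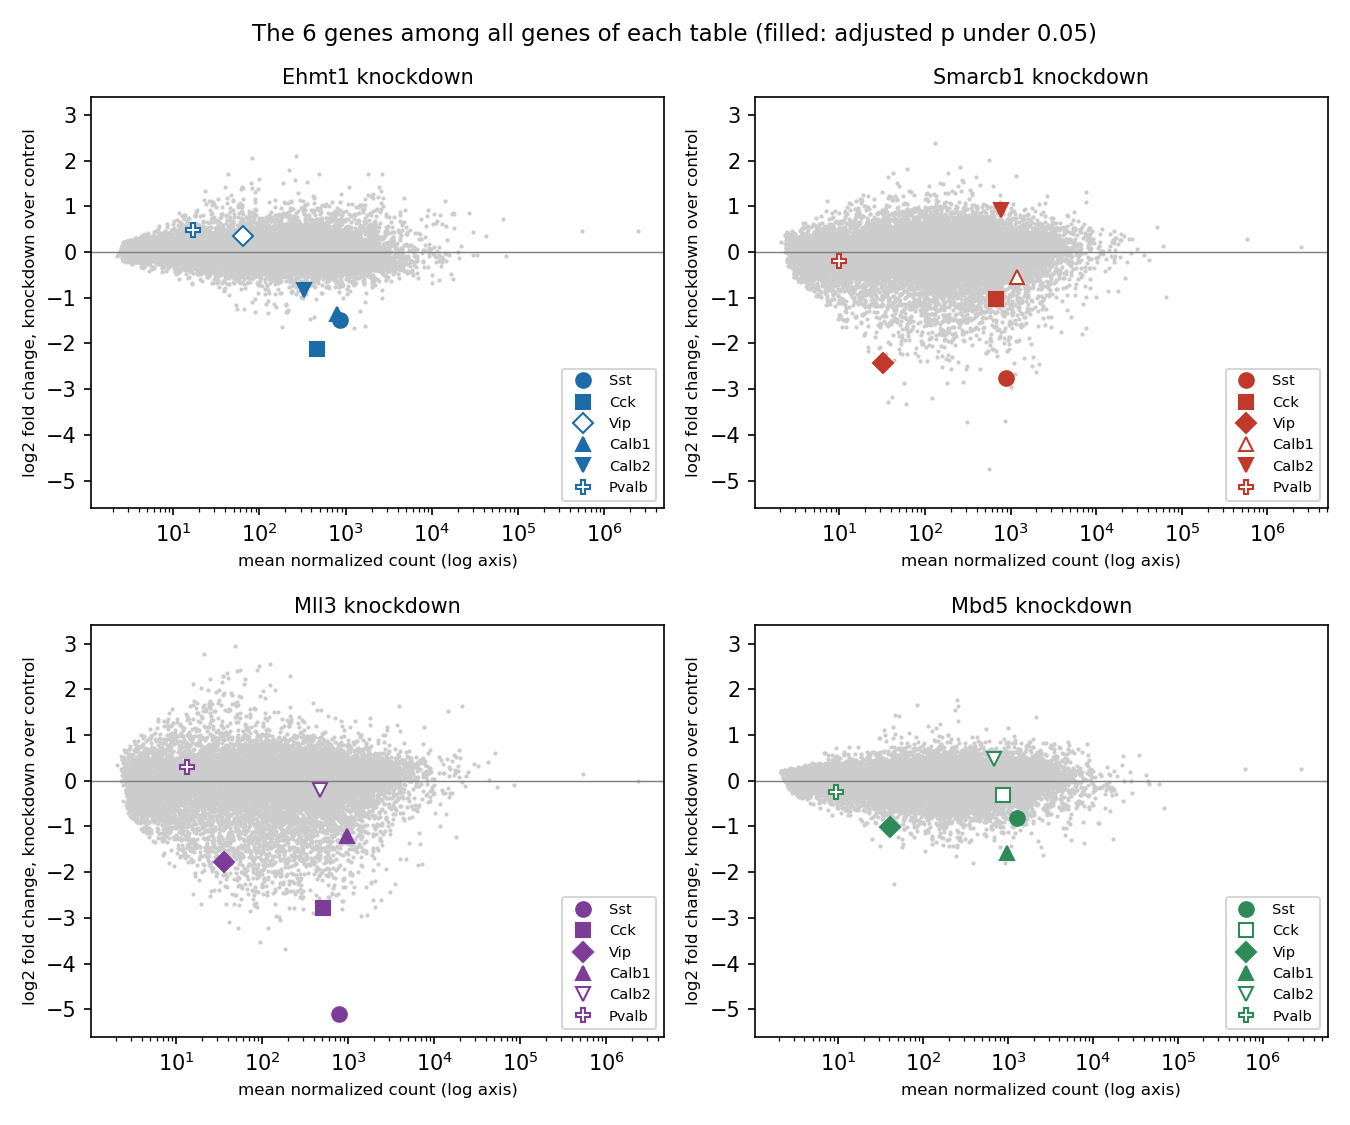
Log2 fold change (vertical axis, knockdown over control) against mean normalized count (horizontal log axis) for all genes of each of the authors' deposited tables (grey) with the 6 genes drawn as symbols, filled where the adjusted p-value was under 0.05. Sst is the lowest point of the Mll3 panel, at -5.10, and Cck the lowest of the Ehmt1 panel, at -2.12. Grey points spread less at low counts in the Ehmt1 and Mbd5 panels, where Vip and Pvalb lie.

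Whether the sizes of fold changes are on one scale in the 4 tables was not tested. The highest SE of any gene was 0.289 in the Ehmt1 table, 0.446 in Smarcb1, 0.561 in Mll3 and 0.314 in Mbd5. The median SE was 0.226, 0.28, 0.332 and 0.233 in the same order. In the Mbd5 comparison Pvalb, at a mean of 9.35, had a smaller SE (0.28) than Vip, at a mean of 41.1 (0.31). An SE near such a ceiling may not show how precisely a low count was measured. Whether the authors' fold changes were pulled towards 0, and how strongly in each comparison, is not stated. It was not tested. The order of shares of control across knockdowns and the overlaps of intervals, given above for Sst, Cck, Vip and Calb1, carry that limit. The shares and intervals of Vip and Pvalb carry it too, as do all places among the tested genes by log2 fold change. Between 83.4% and 90% of genes had a lower mean than Sst, and between 74.4% and 83.8% a lower mean than Cck. Whether genes of low count could reach the lowest places was not tested.

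Genes whose 4 log2 fold changes lay nearest to those of a member were searched among 10556 genes with a mean of at least 50 normalized counts in every table, by the Euclidean distance over the 4 comparisons, which share their control. No gene lay within 1 log2 unit of Sst, and the nearest, ENSRNOG00000004077, was 2.02 away. That gene had log2 fold changes of -0.21 (Ehmt1), -2.56 (Smarcb1), -3.68 (Mll3) and -1.45 (Mbd5), with sizes from the authors' deposited tables and signs as read. It was called lower with Smarcb1, Mll3 and Mbd5, and not with Ehmt1 (adjusted p 0.879, the authors' deposited table). Only 1 gene lay within 1 log2 unit of Cck. This was ENSRNOG00000003512, at a distance of 0.893, with -1.33 (Ehmt1), -0.71 (Smarcb1), -2.51 (Mll3) and -0.25 (Mbd5), with sizes from the authors' deposited tables and signs as read. Calb1 had 3 genes within that distance, Vip 64 and Calb2 506. Vip itself fell below the minimum mean of the search. Few genes have large fold changes, so these counts depend on the size of a member's own changes and are a description only.

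Reads mapped outside annotated features, which the tables list as a row of their own, had log2 fold changes of -0.53 (Mll3), -0.47 (Smarcb1), -0.15 (Mbd5) and 0.11 (Ehmt1). The sizes are from the authors' deposited tables and the signs from the reading used. None of these was called (lowest adjusted p 0.122, the authors' deposited table for Smarcb1). Sst was likewise lowest in Mll3 and Smarcb1, and the part of these reads in the result was not tested. Markers of excitatory neurons, glia and other interneuron genes were not examined, because their symbols could not be paired with identifiers. Library batches are not given, and a batch and a knockdown cannot be told apart in these tables.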

How the data were processed

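The 4 tables of the authors' comparisons were used as deposited. The submitters' processing notes name STAR 2.5.2b, DESeq2 and the build Rnor_6.0, and their roles, the number of libraries and the design are not given in the sources used here. Per the file headers, each row holds a mean of size-factor-normalized counts (a signal over libraries), a log2 fold change with SE, a Wald score, a p-value and an adjusted p-value. The score equalled fold change over SE in every row. Gene rows summed to 9963179 (Ehmt1) to 12264209 (Mbd5) mean normalized counts, and 4 rows that name no gene, 43.9% to 46.5% of the totals, were left out. The depth of single libraries is unknown.

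Knockdown over control was computed under the reading of signs that gave the closest control levels (genes with means of at least 200), with equal shares (0.5) of both groups, and tables were brought to one scale by the median over those genes (factors 0.867 to 1.11). Calls use the authors' adjusted p-values, and intervals are 95%, normal, on the log2 scale. The sign procedure recovered all 4 signs of tables simulated for 15419 genes. The simulation used a shared control, equal groups and plain log ratios, as the procedure assumes. It therefore checks the code and not whether the real data meet these assumptions. Promoter windows were searched for exact letters. Python 3.11.15, pandas 2.3.3 and numpy 2.4.6 were used.

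The members and lists were chosen with earlier results of these data known. Genes to be named were the 7 members, the shRNA targets, called genes of 15 lists (187 symbols) and the 3 genes nearest to each called member. The RefSeq table (GRCr8) pairs 0 genes with Ensembl identifiers, so targets and lists were not analysed here, and of the nearest genes only 2 are named. Alternatives were other thresholds, a minimum fold change, readjustment, centring, control shares and readings of the signs. Ranks were added after seeing the data.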

Additional observations from a re-analysis of the deposited data

How the results depend on the processing

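The counts of members called lower changed by at most 1 gene under adjusted p-values of 0.01 and 0.1, a minimum absolute log2 change of 1, adjustment over all gene rows, and restriction to genes from the median mean count upwards. That restriction leaves out Vip and Pvalb in every comparison, so the calls of Vip are lost there by construction and were not checked by it. Under that minimum change, 0 members were called higher with Smarcb1, since Calb2 falls below it. Centring on the median of all genes moved none of the 24 fold changes by as much as its SE. With only members of a mean of at least 50, the median log2 fold change was -1.36 (Ehmt1) and -2.00 (Mll3), since Vip (Mll3) and Pvalb (both) drop out. The reading of the signs decides every direction. With positive read as higher in the control throughout, the Ehmt1 values turn to 1.36 (Calb1), 0.84 (Calb2), 2.12 (Cck) and 1.48 (Sst), their median to 1.10, with 4 members higher and 0 lower. With positive read as higher in the knockdown throughout, Mll3 turns to 5.10 (Sst), 2.78 (Cck), 1.78 (Vip) and 1.22 (Calb1), median 1.50, with 4 higher and 0 lower. Smarcb1 then turns to 2.75 (Sst), 2.44 (Vip), 1.02 (Cck) and -0.91 (Calb2), median 0.78, with 3 higher and 1 lower. Mbd5 turns to 1.58 (Calb1), 1.02 (Vip) and 0.82 (Sst), median 0.57, with 3 higher and 0 lower. Under either setting only the sign changes and not the size. The reading came first also at minimum means of 50 (SD 0.0397) and 1000 (SD 0.0277). A control share of 0.4 raised the implied control level of Sst in the Smarcb1 table from 1543.8 to 1812.4 on that table's own scale, more than its SE. The other 47 implied control levels at shares of 0.4 and 0.6 moved by less. No paired analysis was possible because the tables hold no values per library, and for the same reason no replicate could be left out. Low counts limit Pvalb and Vip.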
